A study of Homo sapiens with 3 samples.

Results

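The plasma membrane transporters that carry amino acids into and out of HCT116 cells were examined in UHRF1-depleted and control cultures. The set is a list of names with no threshold on a measured value, but it was drawn up with earlier results of these data known, and it holds 10 genes: SLC7A11, SLC7A5, SLC3A2, SLC7A1, SLC38A1, SLC38A2, SLC1A4, SLC1A5, SLC6A9 and SLC43A1. Every probe set that the platform annotation maps to 1 of these symbols was taken, which gave 25 of the 54613 probe sets on the array and 10 of 19775 genes. HCT116 is an established human colorectal carcinoma cell line. All cultures carried a lentiviral short hairpin RNA and were harvested after 6 days of puromycin. The control received a scrambled hairpin (1 array), and UHRF1 was depleted with hairpin 2 (1 array) or hairpin 5 (1 array). UHRF1 is a chromatin protein needed to keep DNA methylation through replication, and the design asked which transcripts it regulates. Each hairpin has a single array, and nothing in the labels says whether the 3 cultures were started separately.

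Amino acid transporters work as exchangers, which trade one amino acid for another, as carriers driven by the sodium gradient, or as facilitative carriers that need no sodium, such as SLC7A1 and SLC43A1. SLC7A5 and SLC7A11 are light chains that reach the cell surface only when joined to the heavy chain SLC3A2. Many of these genes are known targets of ATF4, a transcription factor made when amino acids run short, which binds with C/EBP partners to a short DNA element. Proliferating carcinoma cells are known to depend on leucine, glutamine and cystine brought in by this set.

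The short element is shown first because several members carry its core beside a start site. In RefSeq promoter windows of GRCh38.p14, which hold 250 bases before and 50 bases after a transcription start, the core TGATGNAA was searched on both strands. It was found for 5 of the 9 members with an entry, SLC7A1, SLC38A1, SLC3A2, SLC1A4 and SLC1A5, and for 4.46% of the 27305 genes in the table. By window it was in 5 of 16 member windows and in 3.62% of 35116 windows. SLC7A11 has no entry. Stretches of 30 bases around each match are given 5′ to 3′ on the strand of the gene, with the match in capitals. The window of ASNS, asparagine synthetase, a textbook target of ATF4, is shown beside them.
ASNS, chr7:97872458-97872487, minus strand: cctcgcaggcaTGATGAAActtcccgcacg
SLC7A1, chr13:29595663-29595692, minus strand: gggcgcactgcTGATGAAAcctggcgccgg
SLC38A1, chr12:46266502-46266531, minus strand: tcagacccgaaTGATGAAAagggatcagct
SLC1A4, chr2:64989381-64989410, plus strand: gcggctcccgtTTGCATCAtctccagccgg
SLC1A5, chr19:46784893-46784922, minus strand: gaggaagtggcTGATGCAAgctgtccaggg
SLC3A2, chr11:62881719-62881748, plus strand: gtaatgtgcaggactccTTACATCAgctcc

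The SLC7A1, SLC38A1 and ASNS stretches hold the same 8 letters, TGATGAAA. In SLC7A1 they begin at base 8 of the transcript, in SLC38A1 they begin 4 bases before the start, and in ASNS 68 bases before it. SLC1A4 and SLC3A2 carry the core on the opposite strand, where it reads TGATGCAA and TGATGTAA. The match lies in 1 of 3 windows of SLC1A5 and of SLC3A2, in 1 of 2 windows of SLC38A1 and of SLC1A4, and in the only window of SLC7A1. The more exact form TGATGCAA, which TGATGNAA includes, was in the windows of SLC1A4 and SLC1A5 and of 1.08% of all genes in the table. The core of the antioxidant response element, TGACNNNGC, was in windows of SLC7A1, SLC7A5, SLC3A2 and SLC1A5, and of 16.1% of genes. The E-box CACGTG was in windows of SLC7A5, SLC1A5 and SLC43A1, and of 8.77% of genes. Such a match is a string of letters and no measurement of binding.

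The arrays gave log2 values with medians of 3.002, 2.977 and 3.044 for the control, hairpin 2 and hairpin 5. UHRF1 itself had levels of 8.54 (control), 6.20 (hairpin 2) and 6.67 (hairpin 5). All 7 markers of colorectal epithelium (EPCAM, CDH1, KRT8, KRT18, KRT19, CLDN7 and ELF3) had mean levels between 6.55 and 12.3. The 4 leukocyte markers on the array had mean levels between 2.605 and 2.875, near the array medians. Of 6 fibroblast and endothelial markers, COL1A1 stood apart at 5.82, 6.39 and 5.75. Below, a level is a log2 value of a gene's brightest probe set, the one with the highest mean over the arrays, and a difference is hairpin minus control. Levels of different probe sets are compared only to pick the brightest, to apply the percentile cut and to judge nearness to background.

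The light chains and the arginine carrier SLC7A1 read lower with both hairpins, and each was lower with hairpin 5 than with hairpin 2. SLC7A11 differed by −0.78 and −1.51 for hairpin 2 and hairpin 5, SLC7A5 by −0.60 and −1.20, and SLC7A1 by −0.49 and −0.84. Smaller differences in the same direction were seen for SLC3A2 and SLC38A1. The glutamine carrier SLC1A5 was higher with both hairpins. SLC38A2, SLC1A4, SLC6A9 and SLC43A1 differed by at most 0.26 in either direction. Among genes lower with both hairpins, the drop was larger with hairpin 5 for 5 of 6 members and for 3358 of 6121 genes. UHRF1 itself went the other way, with differences of −2.35 for hairpin 2 and −1.88 for hairpin 5.

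SLC7A11, the antiporter that takes up cystine in exchange for glutamate, had levels of 7.66 (control), 6.88 (hairpin 2) and 6.15 (hairpin 5). The control array was the highest and the hairpin 5 array the lowest. Hairpin 2 was thus 1.71-fold and hairpin 5 2.84-fold below the control. Over both, the difference averaged −1.14 ± 0.52 (SD, n = 2 hairpins), with a standard error of 0.36 in limma and a 95% interval from −2.19 to −0.09 before adjustment. Among 14947 genes with a mean level at or above the 40th percentile of probe sets, SLC7A11 lay at percentile 1.11 of the differences with hairpin 2 and 0.254 with hairpin 5. A second probe set, 217678_at, read 5.08, 4.22 and 3.21, in the same order of arrays. The third, 207528_s_at, read 2.99, 3.51 and 3.01, close to the array medians, and its differences were 0.51 and 0.01. Averaged over the 3 probe sets, the mean difference of SLC7A11 was −0.75.

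SLC7A5, the leucine and large neutral amino acid exchanger, had levels of 9.37 (control), 8.77 (hairpin 2) and 8.17 (hairpin 5). The order of arrays was that of SLC7A11. Hairpin 2 was 1.52-fold and hairpin 5 2.29-fold below the control, and the difference averaged −0.90 ± 0.42 (SD, n = 2 hairpins), with a 95% interval from −1.79 to −0.01 before adjustment. Its only probe set lay at percentiles 2.42 and 0.743 of the differences of those 14947 genes.

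SLC3A2, the heavy chain shared by both exchangers, had levels of 8.06 (control), 7.86 (hairpin 2) and 7.48 (hairpin 5). It was 1.15-fold and 1.49-fold lower, a mean difference of −0.39 ± 0.26 (SD, n = 2 hairpins) with a 95% interval from −1.04 to 0.26. The differences of the heavy chain were smaller than those of both light chains with each hairpin. Whether heavy and light chains differ in response was not tested.

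SLC7A1, which carries arginine and lysine without a heavy chain, had levels of 8.91 (control), 8.42 (hairpin 2) and 8.06 (hairpin 5). It was 1.41-fold and 1.80-fold lower, with a mean difference of −0.67 ± 0.25 (SD, n = 2 hairpins) and a 95% interval from −1.30 to −0.04 before adjustment. This rests on 1 probe set, 212295_s_at. The other 4 had mean levels between 2.32 and 3.90, and none of them was lower with both hairpins. As an average over its 5 probe sets the mean difference of SLC7A1 was −0.05.

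**Figure D1:**
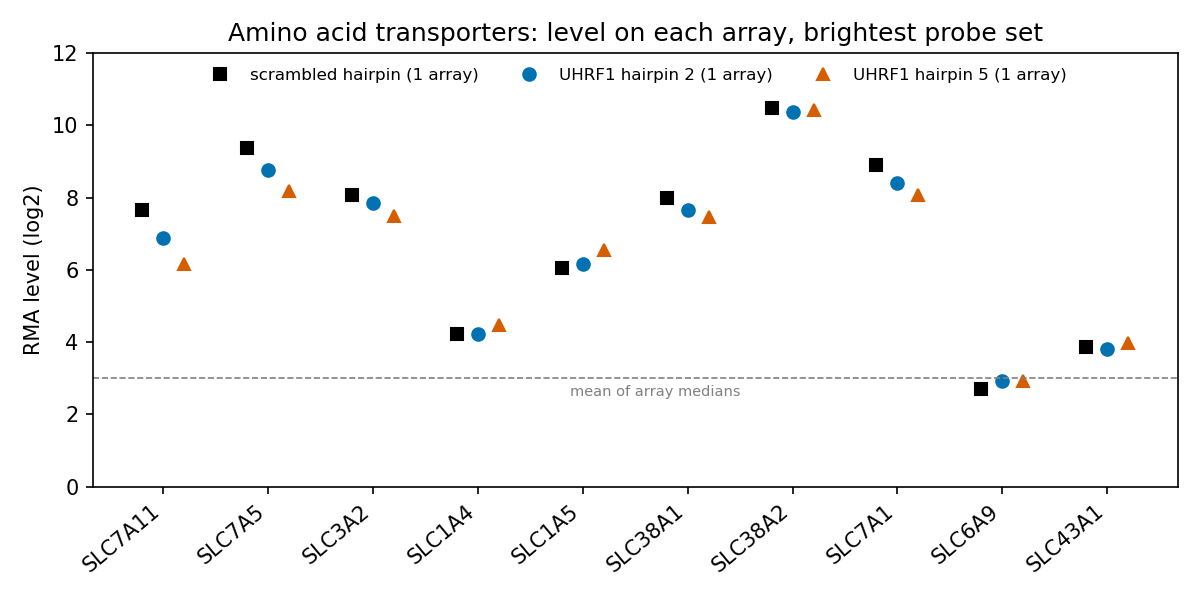
Level (log2) of the brightest probe set of each of the 10 transporters on the 3 arrays, 1 array per symbol; the dashed line is the mean of the array medians. For SLC7A11, SLC7A5, SLC3A2, SLC7A1 and SLC38A1 the control is highest and hairpin 5 lowest, while SLC1A5 runs the other way, from 6.06 to 6.56.

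The SLC38 family has 2 members in the set, SLC38A1 and SLC38A2, which are sodium-coupled carriers of neutral amino acids. SLC38A1, which brings in glutamine, had levels of 7.98 (control), 7.66 (hairpin 2) and 7.46 (hairpin 5). That was 1.25-fold and 1.43-fold lower, a mean difference of −0.42 ± 0.14 (SD, n = 2 hairpins). The probe set 224580_at agreed in direction with differences of −0.36 and −0.54, while 218237_s_at (0.01 and −0.45) and 236857_at (−0.26 and 0.53) were mixed, and the mean over its 4 probe sets differed by −0.24. SLC38A2, a carrier of the same family that amino acid shortage is known to induce, read 10.47, 10.38 and 10.41. Of its 3 probe sets 1 stood below and 1 above the control with both hairpins and 1 was mixed, with all differences between −0.10 and 0.16. The direction of SLC38A2 thus depended on the probe set.

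The SLC1 exchangers were not lower with either hairpin by their brightest probe sets. SLC1A5, which exchanges glutamine for other neutral amino acids, had levels of 6.06 (control), 6.17 (hairpin 2) and 6.56 (hairpin 5). Over both hairpins the difference averaged 0.30 ± 0.28 (SD, n = 2), and hairpin 5 was 1.41-fold above the control. SLC1A4, a carrier of serine, alanine and cysteine, read 4.22, 4.23 and 4.48. Its 5 probe sets disagreed, since 2 stood below and 2 above the control with both hairpins and 1 was mixed, and the mean over them differed by −0.03.

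SLC6A9, the glycine transporter, read 2.71, 2.93 and 2.91, under each array's median, so that its differences of 0.22 and 0.20 lie at a level where background may dominate. SLC43A1, a sodium-independent carrier of branched-chain amino acids, read 3.87, 3.80 and 3.97. Both genes have a single probe set.

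No transporter passed the test across the array. In limma, with Benjamini-Hochberg adjustment over all 54613 probe sets, 0 member probe sets and 0% of all probe sets had an adjusted p under 0.05, with 0.9998 as the smallest adjusted value. Before adjustment 3 member probe sets had p under 0.05, the brightest of SLC7A11, SLC7A5 and SLC7A1, all lower. The share of all probe sets at that level was 1.79% lower and 1.14% higher. The fit has 2 hairpin arrays against 1 control and a single residual degree of freedom per probe set, and it takes the lone control to be as variable as the others. An exact permutation of the 3 arrays could not go below p = 0.333. UHRF1, the depleted gene, was 5.09-fold (hairpin 2) and 3.68-fold (hairpin 5) lower, and it did not pass the adjusted test either.

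By direction, 6 of 10 members were lower than the control with both hairpins, where 31.0% of all genes were, and 3 were higher with both, where 30.5% were. The sixth lower member was SLC38A2, with differences no larger than 0.10. Both hairpin differences use the same control array, so a shared direction is not independent evidence. At least 1.5-fold lower with both hairpins were 2 members, SLC7A11 and SLC7A5, against 1.00% of all genes. At least 2-fold lower with both were 0 members, against 0.167%. With hairpin 2 alone, 2 members were at least 1.5-fold lower (2.03% of genes) and 0 at least 2-fold lower (0.364%). With hairpin 5 alone, 3 members were at least 1.5-fold lower (6.04% of genes) and 2 at least 2-fold lower (1.17%). At least 2-fold higher were 0 of 10 members with either hairpin. Of all 19775 genes, 144 were with hairpin 2 and 30 with hairpin 5. Of all genes, more were thus past the lower thresholds with hairpin 5 and more past the upper one with hairpin 2. The members had median differences of −0.15 (hairpin 2) and −0.29 (hairpin 5), where the medians over all genes were 0.00 and −0.002. With each gene averaged over its probe sets, the members' medians were −0.077 and −0.014. The members were listed with earlier results known, so these shares and medians are descriptions.

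**Figure D2:**
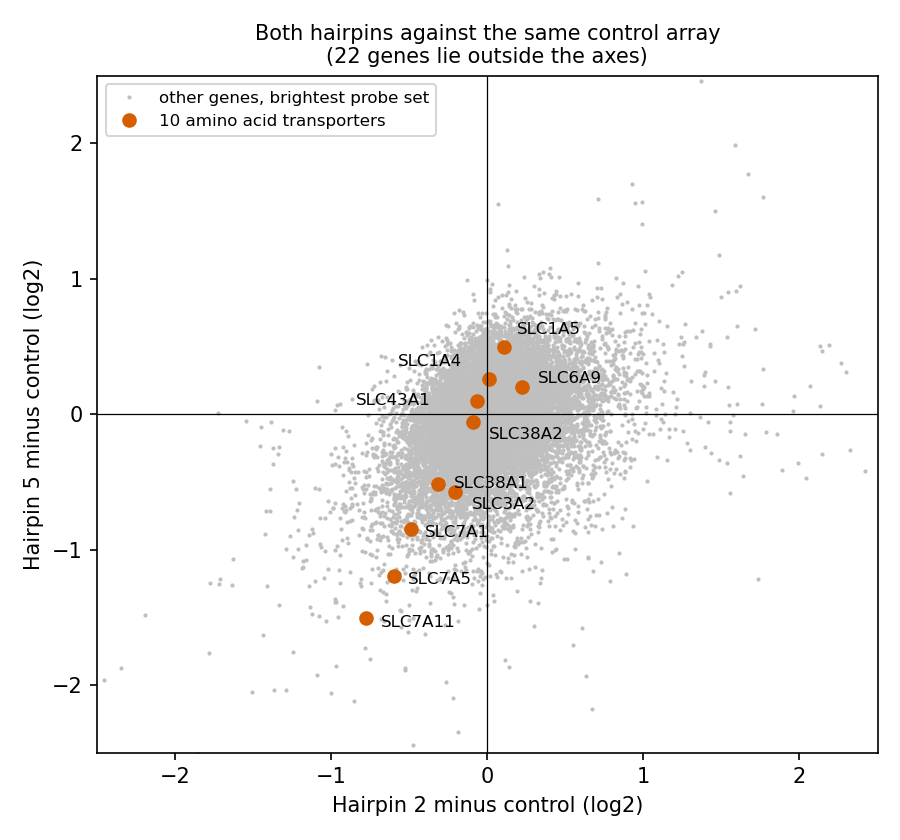
Difference from the control (log2) with hairpin 2 on the x axis and hairpin 5 on the y axis, 1 point per gene by its brightest probe set; both axes share 1 control array and 22 genes lie outside them. SLC7A11 and SLC7A5 lie at the lower left edge of the cloud, and SLC38A2, SLC1A4, SLC6A9 and SLC43A1 lie near its middle.

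Among the 25 member probe sets, 10 were lower with both hairpins (30.8% of all probe sets), 7 were higher (31.7%) and 8 were mixed. At least 1.5-fold lower with both were 3 of them, a pair for SLC7A11 and the single one for SLC7A5, against 0.699% of all. At or above the 40th percentile of mean level, a log2 value of 2.79, lay 23 of the 25, which still includes probe sets near background. Probe sets of SLC7A11, SLC7A1, SLC1A4, SLC38A1 and SLC38A2 differed from one another in direction, and the cause was not tested.

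**Figure D3:**
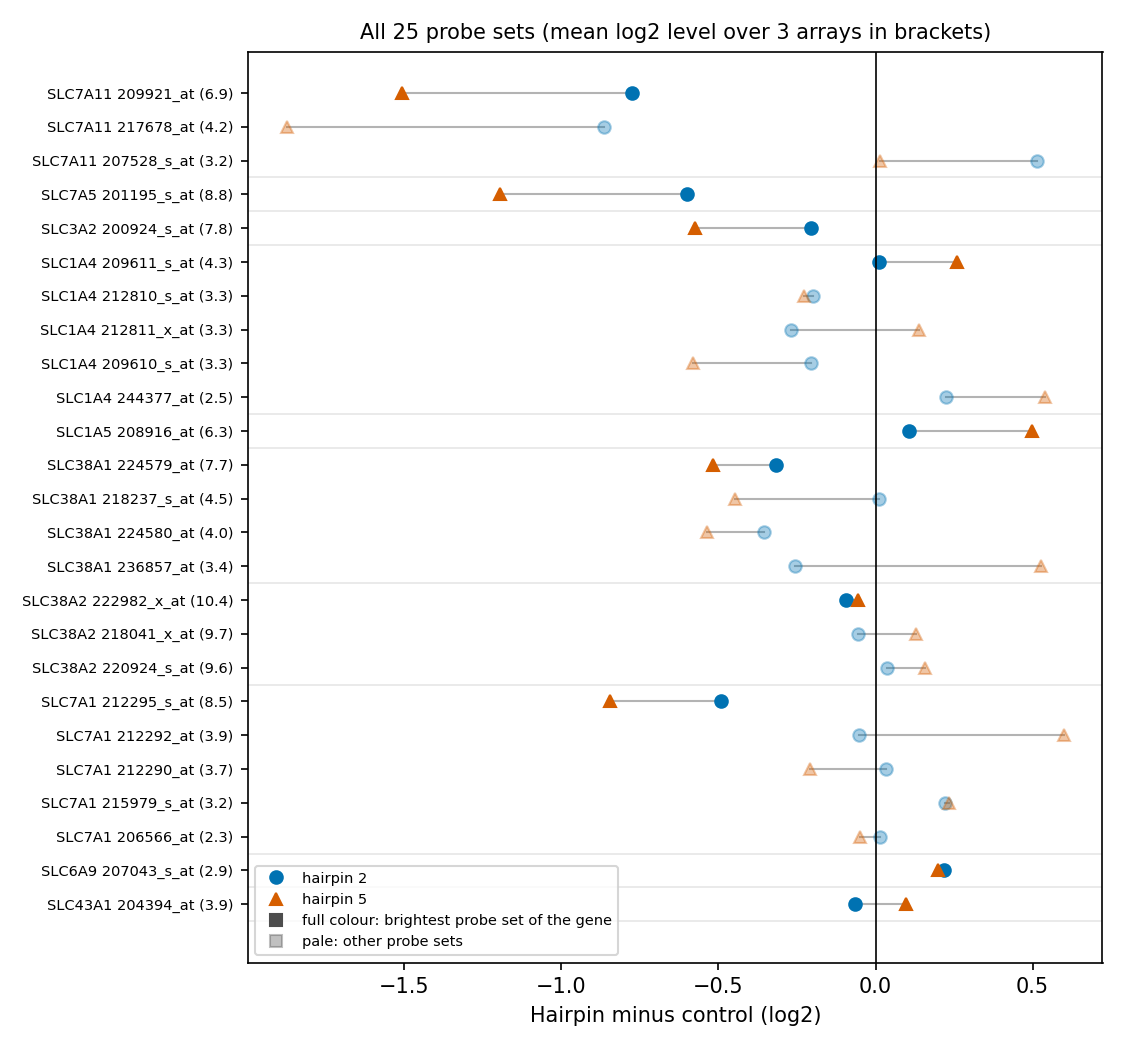
Hairpin minus control (log2) for all 25 probe sets, with the mean level over the 3 arrays in brackets; circles are hairpin 2, triangles hairpin 5, and full colour marks the brightest probe set of a gene. Both probe sets of SLC7A11 with mean levels of 6.90 and 4.17 lie left of 0, and the third lies at or right of it. Of the 4 dimmer SLC7A1 probe sets, 1 lies right of 0 with both hairpins and 3 are mixed, among them 212292_at at 0.60 with hairpin 5.

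ATF4, the transcription factor named above, read 11.01 on the control array and differed by −0.32 with each hairpin. Of its known targets, 3 were taken as markers with earlier results known. TRIB3 differed by −1.78 and −1.76, DDIT3 by −1.37 and −2.04, and ASNS by −1.29 and −2.04. Averaged over 2 probe sets each, the mean differences were −1.15 for TRIB3 and −0.92 for ASNS. Some other known targets did not read lower with both hairpins: CHAC1, which degrades glutathione, differed by 0.12 and −0.39, and CTH and SLC1A5 were above the control. The CTH control level of 3.53 was not far above the array medians. SLC7A11, SLC7A5, DDIT3 and ASNS were all further below the control with hairpin 5 than with hairpin 2. For TRIB3 the differences with the hairpins were nearly equal. NFE2L2, the factor that acts through the antioxidant response element and is known to drive SLC7A11, differed by −0.03 and 0.02. MYC, a known activator of SLC7A5 and SLC1A5 that binds the E-box, differed by 0.08 and 0.23. In limma over all probe sets, 0 of these genes passed, while TRIB3, DDIT3 and ASNS had an unadjusted p under 0.05. By brightest probe set, 763 of all 19775 genes had such a p.

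The other amino acid transporters were taken from a list. Of 43 listed genes, 40 were on the array, of which 13 stood above and 4 below the control with both hairpins and 23 were mixed. Over all genes 30.5% stood above and 31.0% below. Their medians were 0.11 (hairpin 2) and 0.09 (hairpin 5), and 0 passed limma over all probe sets. An unadjusted p under 0.05 was seen for 4 of 40 (SLC43A2, SLC16A10, SLC7A10 and SLC38A9, all higher) and for 763 of all 19775 genes. Of these 40 genes, 28 had a level at or above the 40th percentile. SLC43A2, a relative of SLC43A1 with similar substrates, differed by 0.76 and 0.60, but 1 of its 2 probe sets was lower with both hairpins and their mean differed by 0.30. SLC16A10, a carrier of aromatic amino acids, differed by 0.50 and 0.77, and SLC38A9, a lysosomal arginine sensor, by 0.43 and 0.44. Averaged over their probe sets SLC16A10 and SLC38A9 differed by 0.30 and 0.26. Their control levels of 3.20 and 3.18 were close to the array medians. SLC7A10 differed by 0.48 and 0.51 from a control level of 2.38, which may be background. On the other side SLC1A7 differed by −0.35 and −0.25, SLC6A19 by −0.39 and −0.15, SLC7A6 by −0.40 and −0.10, and SLC36A1 by −0.12 and −0.07. Averages over probe sets were −0.07 for SLC1A7, −0.10 for SLC6A19 and −0.03 for SLC7A6. SLC1A7 and SLC6A19 had control levels of 3.34 and 3.57, not far above the array medians.

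The light chains of SLC3A2 in that list, SLC7A6, SLC7A7, SLC7A8 and SLC7A10, were set beside SLC7A5 and SLC7A11, a choice made with their values in view. SLC7A10, given above, was higher with both hairpins at a level near background. SLC7A6 read 6.66, 6.25 and 6.56. SLC7A7 differed by 0.05 and 0.23 and SLC7A8 by 0.21 and −0.20. SLC7A2, a relative of SLC7A1 that also carries arginine, differed by 0.51 and 0.34, with a mean over its 3 probe sets of 0.10.

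Genes that use the cystine brought in by SLC7A11 were also listed. Of 12 genes, SLC7A11 included, 5 stood below and 3 above the control with both hairpins and 4 were mixed. Over all genes 31.0% stood below and 30.5% above. The medians of the list were 0.00 with hairpin 2 and −0.35 with hairpin 5. TXNRD1, thioredoxin reductase, differed by −0.63 and −0.37. GCLC, the catalytic subunit of the first enzyme of glutathione synthesis, differed by −0.01 and −0.93, and TXN, thioredoxin, by −0.05 and −0.34. CTH and CBS, the enzymes that make cysteine from homocysteine, differed by 0.48 and 0.19 and by 0.26 and 0.27, and GGT1 by 0.33 and 0.14. Averages over probe sets were smaller, −0.31 for TXNRD1, −0.28 for GCLC, −0.04 for TXN, 0.17 for CTH and 0.12 for CBS. For CTH and CBS 1 probe set each was mixed. GGT1, CTH and CBS had control levels of 3.40, 3.53 and 3.92, not far above the array medians. In limma over all probe sets 0 passed, and SLC7A11 was the 1 gene of the list at an unadjusted p under 0.05. Of all 19775 genes, 763 were at that level.

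**Figure D4:**
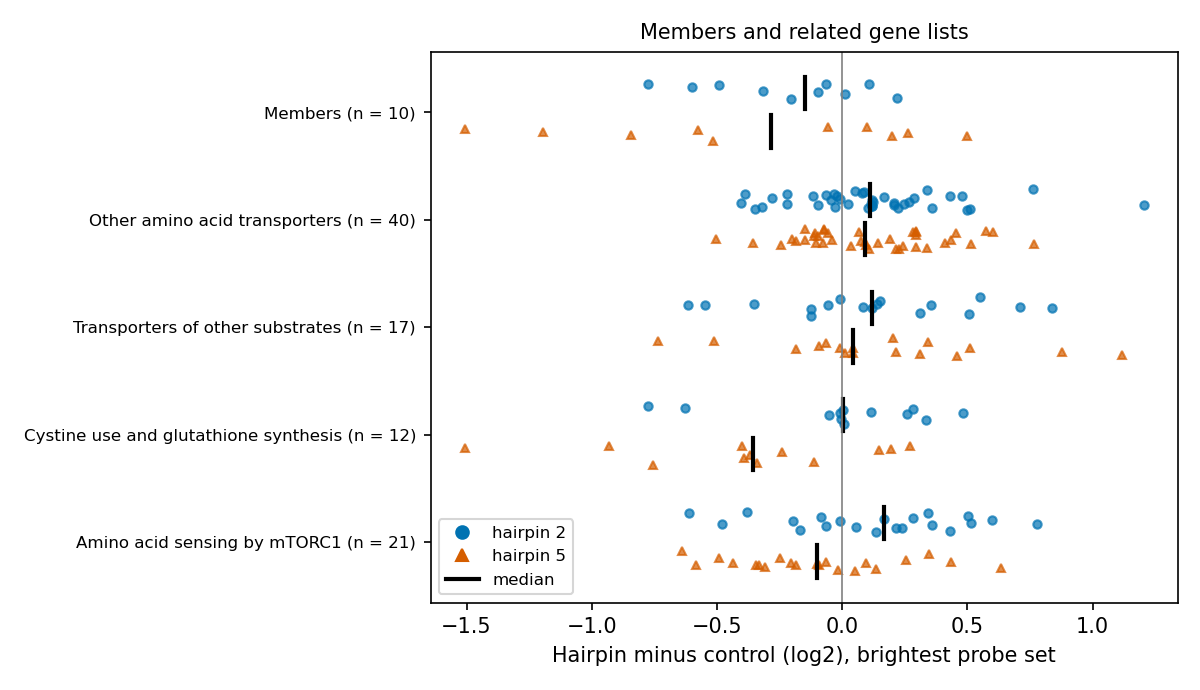
Hairpin minus control (log2) for the 10 transporters and 4 related lists, 1 point per gene by its brightest probe set, with circles for hairpin 2, triangles for hairpin 5 and a bar at each median. The transporters have medians of −0.15 and −0.29, and the other amino acid transporters have medians of 0.11 and 0.09. If all probe sets of a gene are averaged, the transporters' medians are −0.077 and −0.014.

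Of 14946 other genes at or above the 40th percentile of level, the 5 whose pair of differences lay nearest to that of SLC7A11 were RARA-AS1 (−0.68 and −1.52), PLAUR (−0.66 and −1.53), DENND6A (−0.92 and −1.42), EMP1 (−0.95 and −1.50) and STEAP1 (−0.65 and −1.38). PLAUR encodes the urokinase receptor. Averaged over all probe sets of the gene, the mean difference was −0.72 for PLAUR and −0.54 for EMP1, in place of −1.097 and −1.225. For RARA-AS1, DENND6A and STEAP1 it was the same as by the brightest probe set. The likeness is the Euclidean distance over 2 differences that share a control array, from 0.0953 for RARA-AS1 to 0.179 for STEAP1. RARA-AS1 is named an antisense transcript, and the strand that its probe set reads was not checked.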

How the data were processed

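Total RNA from 3 HCT116 cultures was labelled with biotin and hybridised to Affymetrix arrays, per the labels' protocols. The deposited table holds log2 values. The submitters' processing notes name RMA and Affymetrix Expression Console as the authors' tools. Versions and settings are not given in the sources used here. The log base was read from the range of the values, and the centring is unknown. RMA shrinks differences of dim probe sets, and no detection calls were used.

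Probe sets were named from the platform annotation: 41091 had 1 gene, 1801 several and 11721 none. Gene identifiers matched a RefSeq table (GRCh38.p14) for 41037, with 0 symbols changed. limma 3.58.1 (lmFit, eBayes; R 4.3.3) compared 2 hairpin arrays with 1 control over all 54613 probe sets, without a level filter, two-sided. On simulated data with independent noise of equal size on all arrays, its average estimate was checked against the planted change. Calls at an adjusted p were not part of that check. The number of arrays limits the precision. The p-values rest only on the spread between the 2 hairpin arrays and on variances pooled over probe sets, because 1 control array has no spread. Differences between hairpins and between arrays cannot be told apart in that spread.

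Named genes were the members, UHRF1, 6 regulators or targets, up to 4 genes per direction and list, and the 5 nearest to SLC7A11. The members and lists were chosen with earlier results of these data known. Alternatives covered the summary of probe sets, cross-hybridising probe sets, a level filter, centring, cyclic loess, the variance prior, thresholds and each hairpin left out.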

Additional observations from a re-analysis of the deposited data

How the results depend on the processing

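Calls in limma over all probe sets were 0 under each of the 8 alternatives run, beside 1595 probe sets at an unadjusted p under 0.05. When each gene was averaged over its probe sets, the median difference of the members with hairpin 5 was −0.0139 in place of −0.29 and with hairpin 2 −0.077 in place of −0.15, SLC1A4 turned to −0.0305 and SLC38A2 to 0.0198. SLC38A2 stood at 0.10 without probe sets ending in _x_at, and SLC43A1 at −0.00293 under cyclic loess. The cause was not tested. The members at least 2-fold lower numbered 2 at a 1.5-fold threshold. Leaving out a hairpin array gave 0 to 2 such members (2 with hairpin 5 alone), 6 to 7 members lower, 13 to 15 probe sets lower, and −0.066 to 0.098 for SLC43A1. SLC7A11, SLC7A5, SLC3A2, SLC7A1 and SLC38A1 kept their direction under each alternative run. For SLC7A1 the difference averaged over probe sets was only −0.05, in place of −0.67. The count of members lower with both hairpins was 5 or 6. No paired analysis was possible because there is 1 control array and the labels pair it with neither hairpin array. With 1 array per hairpin, and no detection calls, differences at levels near the array medians are uncertain.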

Other observations

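Carriers of other substrates were listed for comparison. Of 20 listed genes, 17 were on the array, of which 8 stood above and 4 below the control with both hairpins and 5 were mixed. Over all genes 30.5% stood above and 31.0% below. The medians of the list were 0.12 (hairpin 2) and 0.04 (hairpin 5). SLC2A1, the glucose transporter, differed by 0.71 and 1.12, 2.17-fold above the control with hairpin 5, and its 2 probe sets averaged 0.43. SLC5A6, a vitamin carrier, differed by 0.51 and 0.88, SLC12A2, a sodium, potassium and chloride cotransporter, by 0.84 and 0.51, and the zinc exporter SLC30A1 by 0.35 and 0.46. SLC39A10, a zinc importer, differed by −0.62 and −0.51, SLC20A2 by −0.55 and −0.09, SLC35B1 by −0.12 and −0.06 and SLC44A1, a choline transporter, by −0.06 and −0.74. Averages over probe sets were 0.36 for SLC12A2, −0.04 for SLC20A2 and −0.18 for SLC44A1. In limma over all probe sets 0 passed, while SLC2A1, SLC12A2, SLC5A6 and SLC39A10 were at an unadjusted p under 0.05. Of all 19775 genes, 763 were at that level.

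Of 21 genes on the array by which mTORC1 senses amino acids, 8 stood below and 7 above the control with both hairpins and 6 were mixed, shares near those of all genes (31.0% below and 30.5% above). The medians were 0.17 (hairpin 2) and −0.10 (hairpin 5). RRAGA, a GTPase that recruits mTORC1 to lysosomes, differed by 0.78 and 0.64, RPTOR by 0.34 and 0.35 and LAMTOR4 by 0.36 and 0.25. SESN2, a leucine sensor and known ATF4 target, differed by −0.61 and −0.31. LARS1, the leucyl-tRNA synthetase, differed by −0.48 and −0.64 with all 4 of its probe sets lower with both hairpins, NPRL3 by −0.38 and −0.49, and LAMTOR2 by −0.20 and −0.18. Averages over probe sets were −0.20 for SESN2 and −0.14 for NPRL3, with 1 mixed probe set each. In limma over all probe sets 0 passed, while RRAGA, SLC38A9 and LARS1 were at an unadjusted p under 0.05. Of all 19775 genes, 763 were at that level.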
